A study of Rattus norvegicus with 96 samples.

Results

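The blood of 8 rats that had inhaled crystalline silica at 15 mg/m3 was compared with that of 4 rats that had breathed air, all taken 1 week after the exposure ended. These 12 rats were selected by their labels from 96 rats in the series, which also holds other intervals and lower concentrations. All were male rats of the CDF Fisher 344 strain, labelled as 3 months old, and exposure lasted 6 hours a day on 5 days in both groups. Each rat gave 1 array, so a replicate here is an animal. The air rats of week 1 served this interval alone, since each interval had its own air group. Blood RNA had been depleted of globin transcripts before labelling, and the values below are therefore levels in mixed blood cells, in which more cells of a type and more RNA per cell cannot be told apart.

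Crystalline silica is a mineral dust that injures the lung after inhalation and causes silicosis. Particles taken up by lung macrophages damage the lysosome and trigger the inflammasome, which processes interleukin-1, and neutrophils are then drawn from blood into the airspaces. Neutrophils carry proteases and antimicrobial proteins in granules, hold large amounts of the calcium-binding S100 proteins in their cytosol and, in rodents, express stefin A genes, which encode inhibitors of cysteine proteases.

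The defining transcripts of blood were present. Of the measured members of each marker list, 21 of 24 erythroid, 20 of 23 T-cell, 14 of 18 B-cell, 14 of 17 platelet, 12 of 17 monocyte and 16 of 24 neutrophil surface and identity genes were detected on all 12 arrays. The share over all genes tested was 55%, so the monocyte and neutrophil counts lie not far above it. Elane and Mpo, granule enzymes made by immature neutrophils, were detected on 0 of the 12. The array of air rat 1 stood apart: it detected 7727 of 21792 probe rows, against 8969 to 9160 on the other air arrays and 8714 to 9531 on the silica arrays, and lay at -27.7 on the first principal component, where the other 11 arrays lay between -4.7 and 6.9. Detected rows averaged 8745.5 ± 684 (SD, n = 4) in air and 9184.5 ± 285 (SD, n = 8) in silica rats, a difference that did not pass an exact permutation test (two-sided p = 0.121, smallest possible 0.00202). Results are given with and without air rat 1 for this reason.

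Silica rats differed from air rats in 48 of 12306 genes tested, of which 28 were higher and 20 lower. Here and below, a gene passed when its limma p, adjusted by Benjamini-Hochberg over all 12306 genes, was under 0.05, and a change is the silica mean minus the air mean of log2 normalized intensity with its standard error (SE). The 28 genes were 0.228% of those tested and the 20 were 0.163%. Changes were small: the rises ran from 1.25-fold to 1.85-fold, the falls from 1.17-fold to 1.61-fold, and 12 rises and 3 falls reached 1.5-fold. Without adjustment 1378 genes had p under 0.05, 788 of them higher. The spread was estimated over all 96 arrays. With only the 12 arrays of week 1, Il1r2, St7l and Scaf1 were the 3 genes that passed, while 1330 had an unadjusted p under 0.05. Without air rat 1, 21 genes passed, 15 higher and 6 lower. With median scaling in place of quantile normalization 5 passed, 0 higher and 5 lower, though none of the 48 changed sign.

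**Figure D1:**
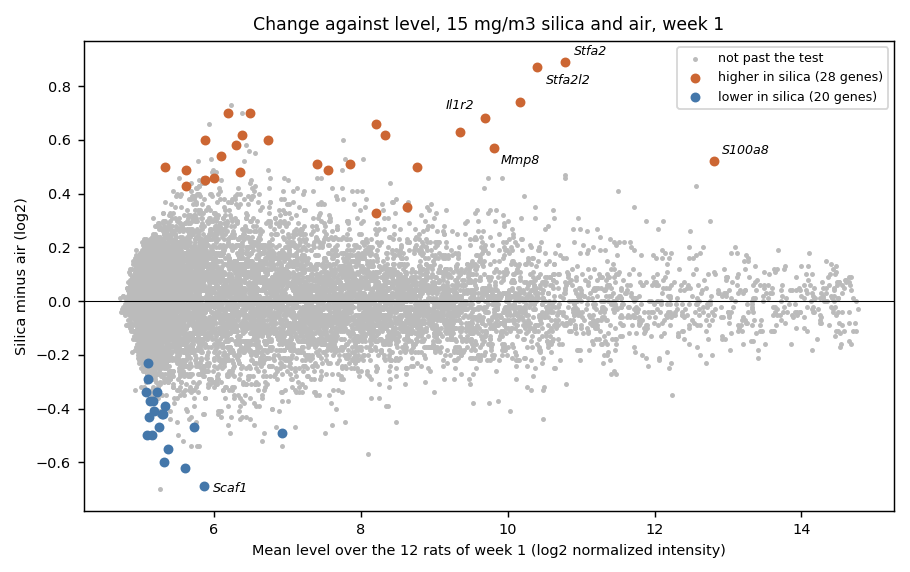
Change at week 1 (silica minus air, log2) against the mean level over the 12 rats (log2 normalized intensity), 1 point per gene. The 28 genes higher in silica (orange) spread from dim to bright with a median level of 7.48, while most of the 20 lower genes (blue) lie at the dim end with a median level of 5.24, near the lowest detected values of 4.96 to 5.08.

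The largest rises were in a pair of stefin A genes. Stfa2l2, a stefin A2-like protease inhibitor gene, had log2 levels of 10.23, 9.81, 9.88 and 9.36 in air rats 1 to 4, and in silica rats a lowest level of 10.22, a median of 10.74 and a highest of 11.19. Air rat 1 was the highest of the air rats, and 7 of 8 silica rats lay above it. The difference was 0.87 ± 0.16 (SE), or 1.83-fold (adjusted p = 0.00162). The row that the array calls Stfa2_predicted, given here as Stfa2, stood at 10.53, 10.02, 10.24 and 9.95 in air rats and at 10.57 to 11.64 in silica rats, with a median of 11.05. Every silica rat exceeded every air rat, and the difference was 0.89 ± 0.16 (adjusted p = 0.00162). Stefin A genes are near-identical copies of each other, so these probes may read more than 1 of them and are not separate observations. Stfa3l1, a further stefin A gene, was detected in 1 of 4 air and 0 of 8 silica rats and did not pass (adjusted p = 0.266).

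Of the neutrophil granule protein genes measured, 4 of 21 rose. Mmp9, the gelatinase of neutrophil granules, was at 8.10, 7.88, 8.02 and 7.67 in air rats and at 8.31 to 8.87 in silica rats, with a median of 8.55. Its 8 silica rats were all above the highest air rat, at 0.62 ± 0.13 or 1.53-fold (adjusted p = 0.0061). Pglyrp1, which recognises peptidoglycan and is stored in granules, was at 9.19, 8.79, 9.01 and 8.73 in air and between 9.35 and 9.98 in silica (median 9.53), again without overlap, at 0.63 ± 0.14 (adjusted p = 0.0121). Mmp8, the neutrophil collagenase, was at 9.60, 9.37, 9.57 and 9.18 in air and between 9.71 and 10.57 in silica (median 9.95). Its groups did not overlap and it rose by 0.57 ± 0.14 (adjusted p = 0.0427).

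The start-site regions of 4 of the genes that rose are shown so that their letters can be set side by side. They are NCBI RefSeq sequence of build GRCr8, plus strand, from 250 bases before to 50 bases after the gene's start, with matches to the core motif TTGCNNAA, which C/EBP factors of the granulocyte lineage bind, and to GAGGAAG, a core bound by PU.1, in capitals on either strand.
Stfa2l2, chr11:78003240-78003539: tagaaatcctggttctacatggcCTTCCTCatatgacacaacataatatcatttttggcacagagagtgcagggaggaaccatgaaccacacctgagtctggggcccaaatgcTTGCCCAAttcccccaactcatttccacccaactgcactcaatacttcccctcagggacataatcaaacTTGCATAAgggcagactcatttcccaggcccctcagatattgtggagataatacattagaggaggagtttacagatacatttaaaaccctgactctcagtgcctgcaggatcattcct
Stfa2, chr11:78049536-78049835: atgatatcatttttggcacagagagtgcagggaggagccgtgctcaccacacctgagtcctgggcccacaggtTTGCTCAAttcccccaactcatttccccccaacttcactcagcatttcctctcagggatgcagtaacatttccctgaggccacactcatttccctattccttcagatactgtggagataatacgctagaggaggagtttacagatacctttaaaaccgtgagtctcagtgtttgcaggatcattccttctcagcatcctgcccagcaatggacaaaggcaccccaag
Mmp8, chr8:13008640-13008939: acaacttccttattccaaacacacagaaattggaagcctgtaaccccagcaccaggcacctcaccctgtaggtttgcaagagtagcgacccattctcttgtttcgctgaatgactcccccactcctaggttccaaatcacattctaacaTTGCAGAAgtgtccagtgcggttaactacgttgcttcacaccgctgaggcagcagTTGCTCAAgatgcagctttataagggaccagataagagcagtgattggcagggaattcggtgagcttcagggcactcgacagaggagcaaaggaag
Pglyrp1, chr1:87659613-87659912: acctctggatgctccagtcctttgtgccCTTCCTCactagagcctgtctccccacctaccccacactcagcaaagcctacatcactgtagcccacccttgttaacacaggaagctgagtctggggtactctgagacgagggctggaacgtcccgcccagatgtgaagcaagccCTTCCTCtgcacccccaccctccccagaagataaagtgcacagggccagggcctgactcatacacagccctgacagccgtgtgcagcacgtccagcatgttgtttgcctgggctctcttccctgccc
The C/EBP core is in both stefin windows and in that of Mmp8, which holds 2 matches, as does Stfa2l2. Pglyrp1 has 2 matches to the PU.1 core, and Stfa2l2 has 1. Of the 28 higher genes 18 matched the promoter table, and 6 of those 18 held the C/EBP core, which 10.6% of all 33469 windows hold. Those 6 include both stefin genes, which are near-identical copies and so not separate cases. The 33469 windows are not limited to the genes tested. The PU.1 core was in 4 of 18 and in 12.4% of all windows. Each of the 4 windows shown holds a match, while those of Fndc3a, Parp8 and others of the 18 hold neither core. A match of letters is a description and not evidence of binding.

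Il1r2, the decoy receptor that binds interleukin-1 without signalling, was among the rises with no overlap of groups. Air rats were at 9.27, 9.21, 9.34 and 9.15 and silica rats at 9.72 to 10.27 with a median of 9.88, a difference of 0.68 ± 0.13 or 1.60-fold (adjusted p = 0.00233). No air rat reached the lowest silica rat, and the change stayed between 0.63 and 0.71 when any single rat was left out. S100a8, a subunit of the antimicrobial complex calprotectin, was at 12.70, 12.28, 12.53 and 12.34 in air and at 12.82 to 13.41 in silica (median 12.88). Its groups did not overlap either, and it rose by 0.52 ± 0.13 (adjusted p = 0.0449). Pilrb2l4, of the paired immunoglobulin-like receptors of myeloid cells, was at 8.05, 7.72, 7.67 and 7.59 in air and at 8.15 to 8.96 in silica (median 8.38), a rise of 0.66 ± 0.13 (adjusted p = 0.00233).

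**Figure D2:**
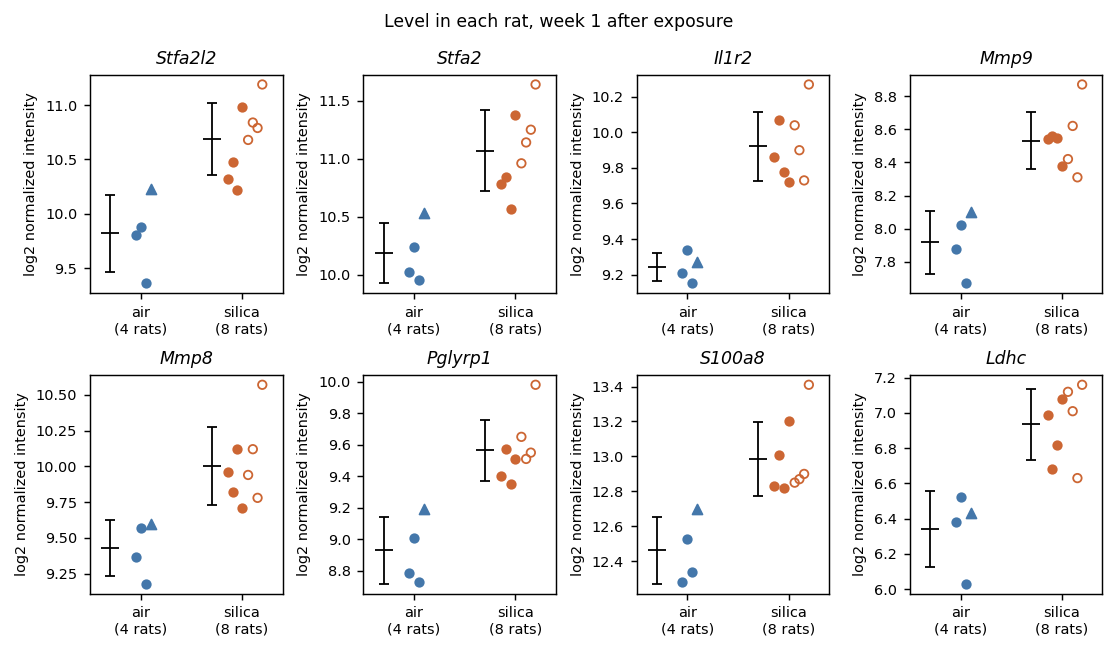
Log2 normalized intensity of 8 of the genes higher in silica, 1 point per rat, with the group mean and SD (bar) to the left of the points. Triangles mark air rat 1, filled orange points silica rats 1 to 4 and open points silica rats 5 to 8. In every panel but that of Stfa2l2 the 8 silica rats lie above all 4 air rats.

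Ldhc, Hk3 and Tcn2 were also among the rises. Ldhc, the lactate dehydrogenase best known from testis, was at 6.43, 6.38, 6.52 and 6.03 in air and at 6.63 to 7.16 in silica (median 7.00), a rise of 0.60 ± 0.12 (adjusted p = 0.00233) without overlap. Hk3, a hexokinase of myeloid cells, was at 5.42, 6.32, 6.41 and 5.98 in air and at 6.44 to 6.99 in silica (median 6.75), a rise of 0.70 ± 0.16 (adjusted p = 0.0148). Air rat 1 was the lowest of all 12 rats for Hk3, and without it the change was 0.49 and no longer passed (adjusted p = 0.33). Tcn2, which carries vitamin B12 in plasma, was at 7.72, 7.35, 7.56 and 7.41 in air and at 7.75 to 8.36 in silica (median 8.06), a rise of 0.51 ± 0.12 (adjusted p = 0.0369).

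Read as lists, the myeloid genes that passed were few members of their groups. Of 21 granule protein genes measured, Mmp9, Pglyrp1, Mmp8 and Tcn2 rose, 0 fell, 16 were above 0 and the median change was 0.09. Over all genes tested the median at week 1 was 0.01, and 52.8% were above 0. Tcn2 was placed in the granule list for its human relative TCN1, the granule protein, and is itself a plasma carrier. The next member by p was Camp, the cathelicidin precursor, at 0.42 ± 0.14 (adjusted p = 0.19). Air rat 1 had the highest Camp level of all 12 rats (7.61), and without it Camp was at 0.67 and passed (adjusted p = 0.00961). Fcnb, a ficolin of granules, was at -0.27 ± 0.20 (adjusted p = 0.662), and Slpi, Hp, Cybb, Ncf1 and Itgam had changes of 0.13 or less.

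Of 24 neutrophil surface and identity genes, Il1r2, Hk3 and S100a8 rose and 0 fell, with 18 above 0 and a median of 0.19. Padi4, the enzyme that citrullinates histones in neutrophil traps, was at 0.42 ± 0.14 (adjusted p = 0.171), and Csf3r, the receptor for granulocyte colony-stimulating factor, at 0.41 ± 0.17 (adjusted p = 0.322). The chemokine receptor gene Cxcr2 was at 0.28 ± 0.15 (adjusted p = 0.495). The mean of the 24 genes lay between 7.12 and 7.26 in air rats and between 7.29 and 7.62 in silica rats, so that the groups did not overlap. That mean includes Il1r2, Hk3 and S100a8, which passed in these same rats, so the separation is a description and no test. Means of the S100 and stefin A, interleukin-1 and glucocorticoid-responsive lists also separated all 8 silica rats from the air rats. The mean of the 21 granule genes did overlap, at 7.71 to 7.98 in air and 7.88 to 8.24 in silica, with 4 of 8 silica rats above the highest air rat.

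Among 10 S100 and stefin genes, Stfa2l2, Stfa2 and S100a8 rose, 0 fell, and the median was 0.25. S100a9, the partner of S100a8, was at 0.40 ± 0.18 (adjusted p = 0.384) from a dim probe detected in 2 of 4 air and 7 of 8 silica rats. S100a11 was at 0.26 ± 0.14 and S100a4 at -0.02 ± 0.14, and neither passed.

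Of 16 genes of the interleukin-1 axis and inflammasome, Il1r2 alone passed, while 13 were above 0 and the median was 0.15. Il1b, the cytokine itself, was at 11.90, 11.64, 11.59 and 11.56 in air and at 11.68 to 12.29 in silica (median 11.99). Those ranges overlap, and its change of 0.30 ± 0.14 did not pass (adjusted p = 0.39). Values for the adaptor Myd88 were 0.27 ± 0.12 (adjusted p = 0.336), for the protease Casp1 0.22 ± 0.10 (adjusted p = 0.379) and for the sensor Nlrp3 0.23 ± 0.15 (adjusted p = 0.584). Irak1, a kinase downstream of the receptor, was at -0.21 ± 0.11 (adjusted p = 0.477).

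**Figure D3:**
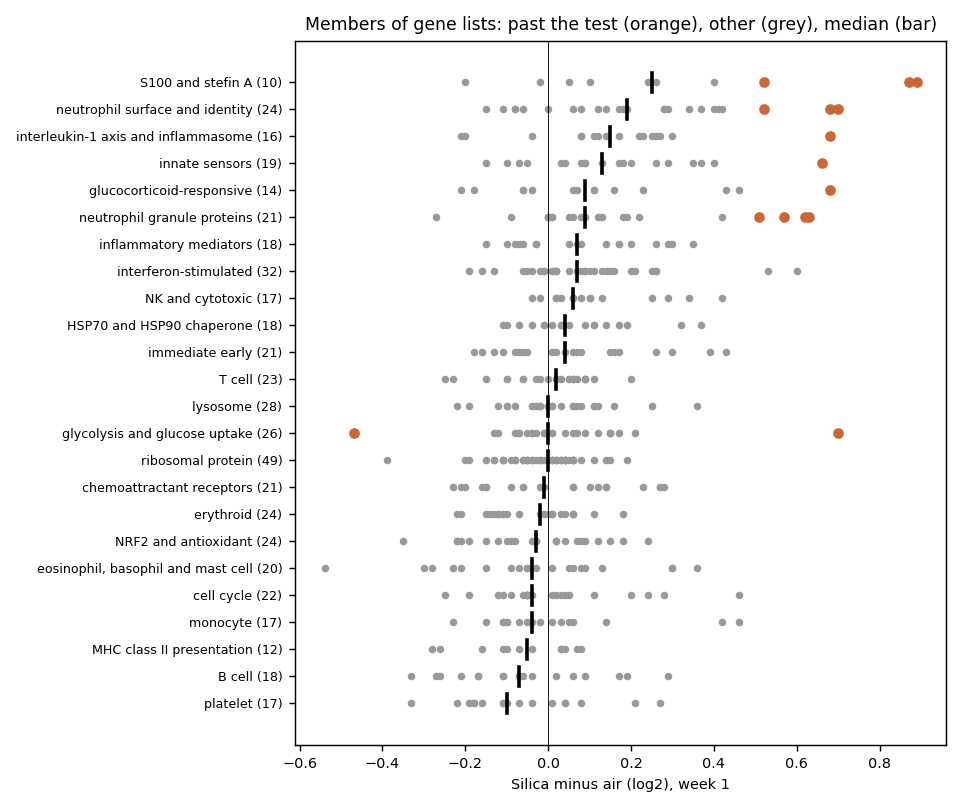
Change at week 1 (silica minus air, log2) of each measured member of 24 gene lists, with the number of members in parentheses. Orange points passed the test, grey points did not, and the bar is the list's median, which runs from -0.10 for platelet genes to 0.25 for S100 and stefin A genes.

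Lists of other cell types held no gene that passed. Median changes were 0.02 over 23 T-cell genes, -0.07 over 18 B-cell genes, 0.06 over 17 NK and cytotoxic genes, -0.04 over 17 monocyte genes, -0.02 over 24 erythroid genes and -0.10 over 17 platelet genes. Fcgr1a, the high-affinity IgG receptor of monocytes, came nearest at 0.42 ± 0.12 (adjusted p = 0.107), with air rats at 9.56, 9.18, 9.51 and 9.36 and silica rats at 9.62 to 10.16. Its groups did not overlap. Whether the share of any cell type differed was not measured by these arrays.

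Lists of response pathways held few genes that passed, and the interferon-stimulated and NRF2 lists held none. The 32 interferon-stimulated genes had a median of 0.07, led by Ifit1 at 0.53 ± 0.14 (adjusted p = 0.0513) and Ifitm6 at 0.60 ± 0.17 (adjusted p = 0.0732). The 24 NRF2 and antioxidant genes had a median of -0.03. Cat, the catalase gene, was at 12.39, 12.51, 12.46 and 12.49 in air and at 11.93 to 12.28 in silica, all 8 below every air rat, and its change of -0.35 ± 0.12 did not pass (adjusted p = 0.217). Glucocorticoid-responsive genes passed in 1 of 14 cases, again Il1r2, and Anxa1, the anti-inflammatory annexin, was at 0.46 ± 0.12 (adjusted p = 0.0714). Of 26 glycolysis and glucose uptake genes Hk3 rose and Slc2a1, the glucose transporter GLUT1, fell. None of 28 lysosome, 18 inflammatory mediator, 21 immediate early, 21 chemoattractant receptor, 12 MHC class II, 22 cell cycle, 49 ribosomal protein, 20 eosinophil, basophil and mast cell or 18 chaperone genes passed, and 1 of 19 innate sensor genes did (Pilrb2l4).

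The rest of the 28 rises belonged to a range of other roles. St7l rose by 0.51 ± 0.10 (adjusted p = 0.00233), from 7.09, 7.13, 7.10 and 6.95 in air to 7.41 to 7.71 in silica, without overlap. Fndc3a, a protein with fibronectin type III domains, rose by 0.49 ± 0.10 (adjusted p = 0.00802), and Parp8, of the ADP-ribosyltransferase family, by 0.35 ± 0.08 (adjusted p = 0.0234). Unannotated row LOC684525 rose by 0.74 ± 0.15 (adjusted p = 0.00459) from a bright probe. LOC683999, also unannotated, was detected in 0 of 4 air and 7 of 8 silica rats and was at least 1.37-fold higher, measured against the lowest detected signal.

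Cpeb2, a regulator of mRNA translation, rose by 0.70 ± 0.15, and the zinc finger genes Zfp455 and Zfp518a by 0.62 ± 0.13 and 0.60 ± 0.14. The others were C1galt1c1, a chaperone for O-glycan synthesis, Ppm1d, a phosphatase of the p53 response, Strn3, Ubr3, a ubiquitin ligase, Kdm4c, a histone demethylase, Nudt19, Atrn, Polb, a repair polymerase, and Rb1cc1, which starts autophagy, with rises of 0.33 to 0.58.

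Whether these rises passed without air rat 1 went with its position among the air rats. Air rat 1 was the lowest of the 4 in 12 of the 28 genes, among them Cpeb2, Hk3, Zfp455, Zfp518a, Nudt19 and Polb. Of those 12, 0 passed without it. In another 11 it was the highest air rat, and 9 of those passed without it. Altogether 13 of the 28 still passed: Stfa2l2, Stfa2, Il1r2, Pilrb2l4, Ldhc, St7l, LOC684525, Mmp9, Fndc3a, Pglyrp1, Parp8, Tcn2 and S100a8. Mmp8 was at 0.63 without it and missed the threshold (adjusted p = 0.073). All 28 stayed above 0 with an unadjusted p under 0.05. Stfa2l2, Stfa2, Il1r2, Pilrb2l4, Ldhc, St7l, LOC684525 and Fndc3a passed in each of the 12 fits that leave out 1 rat. The split is in part arithmetic, since leaving out the lowest air rat raises the air mean and shrinks a rise. Air rat 4 was likewise the lowest air rat in 12 of the 28 genes, and air rat 2 the highest in 11.

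**Figure D4:**
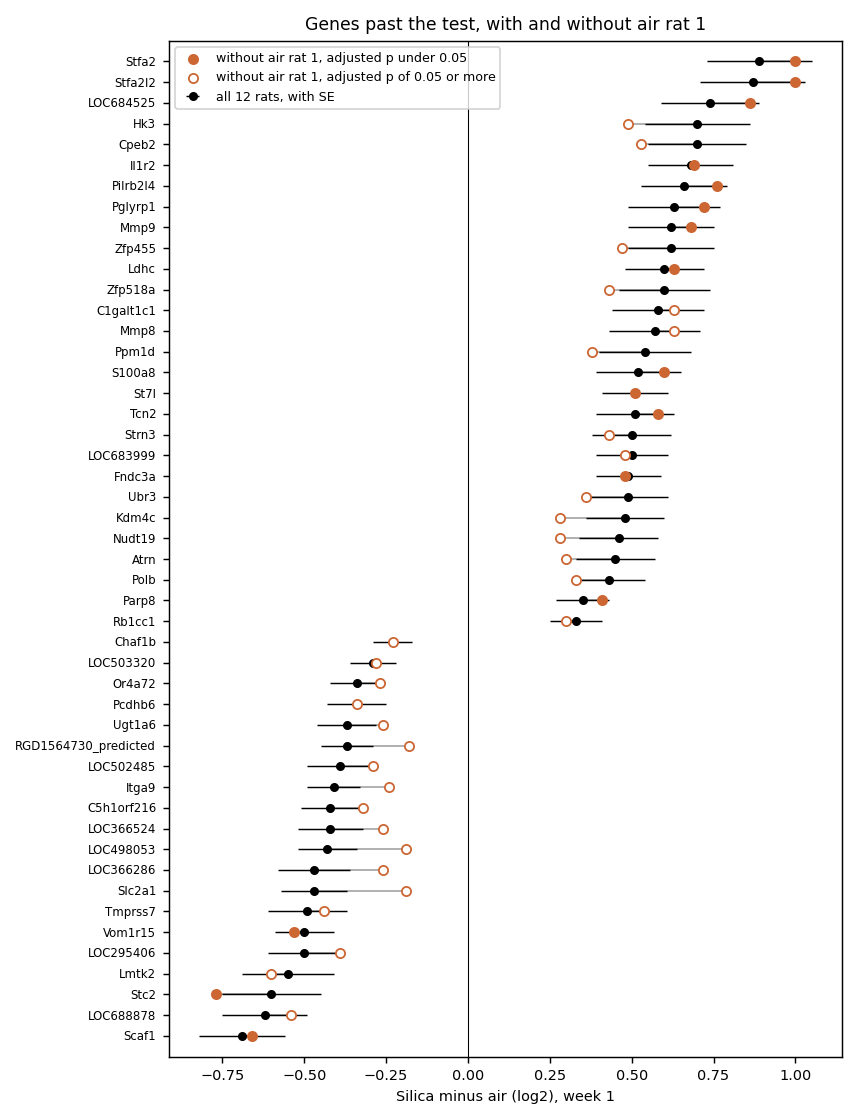
Change at week 1 (silica minus air, log2) of the 48 genes that passed, with all 12 rats (black, SE bars) and without air rat 1 (orange, filled where the adjusted p stays under 0.05). Of the rises 13 and of the falls 3 keep a filled point.

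Among silica rats, rat 8 was the highest in 17 of the 28 higher genes and the lowest in 0. It had the top level of Stfa2l2, Stfa2, Il1r2, Mmp9, Mmp8, Pglyrp1, S100a8, Tcn2, Pilrb2l4 and Hk3. Without this rat 32 genes passed, 18 of them higher. The lowest silica rat was rat 2 in 8 of the genes, rats 3 and 4 in 6 each and rat 7 in 5. Every silica rat lay above the air mean in all 28 genes. In 19 of them every silica rat lay above every air rat, which 0.91% of all genes tested show. These rats also chose the genes, so both counts describe them and test nothing.

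The falls were mostly of dim genes. Of 20 lower genes 2 were detected on all 12 arrays, where 55% of all genes tested were. A further 10 were detected on fewer than 6 arrays, and 4 in 0 silica rats. Scaf1, a protein that binds the tail of RNA polymerase II, was the clearest, at 6.41, 6.36, 6.12 and 6.39 in air and at 5.47 to 5.83 in silica (median 5.62). Its groups did not overlap, it was detected on all 12 arrays, and it fell by 0.69 ± 0.13 on the log2 scale (adjusted p = 0.00162). Tmprss7, a membrane serine protease and the other gene detected on all 12, fell by 0.49 ± 0.12 (adjusted p = 0.0449). All silica rats lay below all air rats in 5 of the 20 falls (Scaf1, Itga9, LOC295406, Or4a72 and Ugt1a6), a pattern shown by 0.268% of all genes tested.

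Slc2a1 was at 6.41, 5.06, 5.21 and 5.56 in air and at 4.95 to 5.24 in silica. Its fall of 0.47 ± 0.10 (adjusted p = 0.00802) rested on air rat 1, without which the change was -0.19 (adjusted p = 0.609). Stc2, the secreted hormone stanniocalcin 2, was at 5.20, 5.35, 6.38 and 5.95 in air and at 4.84 to 5.63 in silica, and fell by 0.60 ± 0.15 (adjusted p = 0.0434). Those groups overlap, and it was detected in 3 of 4 air and 1 of 8 silica rats, so the silica mean of 5.12 lies near the detection limit. Vom1r15, a vomeronasal receptor gene, fell by 0.50 ± 0.09 (adjusted p = 0.00162) and was detected in 2 of 4 air rats and 1 of 8 silica rats.

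For genes undetected in every silica rat the fall is a lower bound, given here with all 4 air rats. Itga9, an integrin subunit detected in 4 of 4 air and 0 of 8 silica rats, was at least 1.32-fold lower. LOC498053 was at least 1.31-fold lower, RGD1564730_predicted 1.27-fold and LOC503320 1.20-fold, each detected in 2 of 4 air rats. These bounds concern the detection limit and not the spread between rats. Without air rat 1 the log2 changes of these genes were -0.24, -0.19, -0.18 and -0.28 in that order, and none passed (limma adjusted p of 0.33, 0.533, 0.577 and 0.195). The remaining falls were of Lmtk2, a kinase, Ugt1a6, a glucuronosyltransferase, Pcdhb6, a protocadherin, Chaf1b, a chromatin assembly subunit, Or4a72, an olfactory receptor, C5h1orf216, and the unannotated LOC688878, LOC295406, LOC366286, LOC366524 and LOC502485, with changes of -0.62 to -0.23. Air rat 1 was the highest air rat in 13 of the 20, and without it Scaf1, Vom1r15 and Stc2 still passed.

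Runs of 12 neighbouring columns in the deposited table, which the labels do not describe, each held 1 air and 1 silica rat of week 1 in the first 4 runs, and the other 4 silica rats sat in runs of their own. Within the first 4 runs, 26 of the 28 higher genes were above 0 in 4 of 4 pairs and 11 of the 20 lower genes were below 0 in 4 of 4. These rats also chose the genes, so the counts describe the pairs and test nothing. Il1r2 differed by 0.65, 0.44, 0.80 and 0.57 in these pairs, and Stfa2l2 by 0.51, 0.34, 0.25 and 1.62. The median change of the 28 genes was 0.50 for silica rats of the first 4 runs and 0.58 for those of the other 4, both against the same air rats. For the 20 lower genes these medians were -0.40 and -0.44. With the first 4 runs alone, 4 rats against 4, 0 genes passed and 724 had an unadjusted p under 0.05.

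The same genes were then followed at the other intervals, each measured in other silica and air rats. Because they were chosen by their change at week 1, its size there is not set against the other weeks. At week 0, 27 of the 28 higher genes were above 0 with a median of 0.21, and Ldhc was the 1 that passed, where 0.0163% of all genes were higher and 0% lower. At week 2 the median was -0.01, 12 were above 0 and 0 passed, beside 0% of all genes higher and 0.0325% lower. Week 4 had 22 above 0, a median of 0.27 and 0 that passed, against 0.0163% higher and 0.106% lower overall. At week 8, 27 were above 0, the median was 0.38 and 11 passed, where 0.26% of all genes were higher and 0.00813% lower. At week 16, 27 were above 0, the median was 0.40 and 15 passed, where 3.08% of all genes were higher and 1.7% lower. Of all genes tested, 52.6%, 50.7%, 50.6%, 48.7% and 50.1% were above 0 at weeks 0, 2, 4, 8 and 16.

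The 11 that passed at week 8 passed at week 16 too. Il1r2 was at 0.47, 0.06, 0.51, 0.64 and 0.70 at weeks 0, 2, 4, 8 and 16, and Mmp8 at 0.46, 0.16, 0.47, 0.76 and 1.10. Stfa2l2 was at 0.17, -0.03, 0.54, 1.04 and 0.67 at those weeks. Both stefins were thus near their air rats at week 2 and above them at week 8, where both passed. The 13 rises that also passed without air rat 1 had medians of 0.36, 0.06, 0.40, 0.56 and 0.69 at weeks 0, 2, 4, 8 and 16. At week 16, 12 of them passed. Of the other 15 rises 3 did, with a median of 0.20.

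The 20 lower genes passed at none of the other weeks, and their medians there lay between -0.07 and 0.04. Scaf1 was at -0.08, -0.03, 0.21, -0.09 and -0.31 at weeks 0, 2, 4, 8 and 16.

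**Figure D5:**
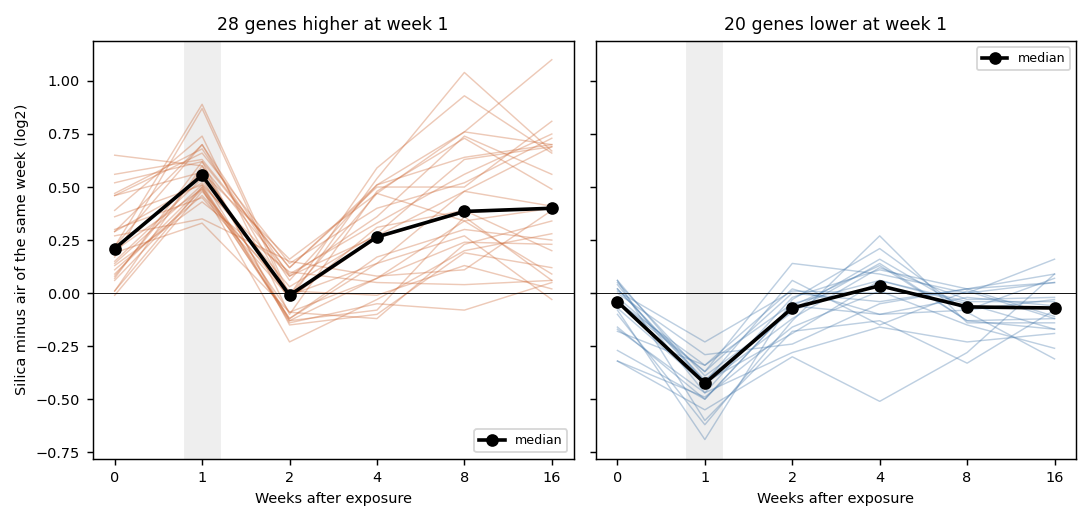
Change (silica minus air of the same week, log2) of the 28 genes higher and the 20 genes lower at week 1 (shaded), 1 thin line per gene and the median in black, over 6 intervals that are evenly spaced on the axis. Week 1 chose the genes and is drawn for reference only. At the other weeks the median of the higher genes runs from -0.01 at week 2 to 0.40 at week 16, and that of the lower genes lies between -0.07 and 0.04.

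Whether the silica effect itself differed from that of another week was tested by an interaction term over all genes. Against week 2, 4 genes passed, 0.0325% of those tested, and all 4 were higher at week 1: Hspcal3_predicted, a row with no current annotation, by 0.94 ± 0.15 (adjusted p = 7.31e-05), Chordc1, a partner of the chaperone HSP90, by 0.83 ± 0.14 (adjusted p = 0.000644), Stip1, which links HSP70 to HSP90, by 0.65 ± 0.14 (adjusted p = 0.0305) and the J-domain gene Dnaja1, whose protein stimulates HSP70, by 0.55 ± 0.12 (adjusted p = 0.0305). At week 1 none of them passed on its own. Chordc1 was at 8.68, 8.65, 8.70 and 8.41 in air and at 8.74 to 9.22 in silica, a change of 0.32 ± 0.10 (adjusted p = 0.15) without overlap, and at week 2 it was at -0.51 ± 0.10 (adjusted p = 0.0137). Hspcal3_predicted was at 0.38 at week 1 (adjusted p = 0.0664) and at -0.56 at week 2 (adjusted p = 0.00566). All 4 were lower at week 2 and passed there. Without air rat 1, 2 genes passed this test.

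Against week 0 and against week 16, 0 genes passed the limma interaction test, 0% in each, with 660 and 1152 genes at an unadjusted p under 0.05. The lowest p were those of Mtpn and Suv39h1 against week 0 (adjusted p = 0.898 for both) and of Tbcb and Fhip1b against week 16 (adjusted p = 0.0964 for both). None of the 48 genes passed an interaction with any of these 3 weeks, so that a different size at week 0, 2 or 16 was not shown for a single one of them. Interactions with weeks 4 and 8 were not tested.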

How the data were processed

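RNA of 96 rats was hybridised to Illumina rat BeadChips, and the 12 arrays of week 1 are compared here within a fit over all 96. Per the file headers, the deposited table of non-normalized values gives for each array a probe intensity, a detection p-value, a bead error and a bead count. BeadStudio, limma and lumi are named by the submitters' processing notes with no version. The deposited series table holds the authors' normalized log2 values, whose exact transform is not given in the sources used here. They follow each array's log2 intensity (correlation of at least 0.992) and served as an alternative.

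In R 4.3.3 with limma 3.58.1, intensities were background-corrected by normexp with parameters from the detection p-values and offset 16. They were then quantile normalized, and log2 was taken afterwards. The 626 rows whose detection p was off its grid of 825 steps were left out of the background estimate, a change to neqc made with the data seen. A detection p under 0.05 was required on 4 or more arrays, which kept 12368 of 21792 rows. The brightest row per gene gave 12306 genes. A mean per group was fitted with lmFit and eBayes, and adjusted p is Benjamini-Hochberg over these genes. The fit was also run on data simulated with independent normal spread per gene. Those data hold no outlying array and no run effect, so they cannot speak to either. Probes rested on a median of 41 beads, and bead error (median 0.057 log2) was below the spread between arrays of a group (0.269), which holds rat, labelling and array effects together. The number of arrays limits the precision. Names came through Entrez IDs for 16866 rows, accessions for 23 and file symbols for 133, and 4770 keep the file's name.

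Every gene that passed could be named, with up to 4 members of lowest p per list, all members of the 4 neutrophil, S100 and interleukin-1 lists, and the leading genes of each interaction. The comparison and the gene lists, written from general knowledge, were chosen with earlier results of these data known. Rows undetected in a group were set against the lowest detected signal of each array. Same-numbered air and silica rats correlated at -0.15, -0.12, 0.20 and 0.06, so the numbers were not taken to pair rats. Per-sample columns left without a sample numbered 0. Blocks entered the fits as fixed terms, data.table (version 1.17.8) read the files, and figures were drawn with matplotlib.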

Additional observations from a re-analysis of the deposited data

Results flagged for a closer look

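Air rat 1 was flagged among the air rats in 3 measures. Its array detected 7727 probe rows, where the nearest air rat had 8969. Its Nudt19 level was 5.15 against a nearest 5.82, and its LOC498053 level was 6.12 against a nearest 5.22. Air rat 3 was low for Scaf1, at 6.12 against a nearest 6.36, which narrows the distance to the silica rats. Silica rat 2 was high for Pcdhb6, at 5.23 against a nearest 5.01, close to the detection limit. These stood out by Dixon's test in 98 groups of values checked, where chance gives about 1 in 20. That rate yields about as many flags as were found, so a flag alone does not set a value apart.

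The silica effect differed between week 1 and week 2, by the interaction test, for Hspcal3_predicted (0.94), Chordc1 (0.83), Stip1 (0.65) and Dnaja1 (0.55), all as week 1 minus week 2 on the log2 scale.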

How the results depend on the processing

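The 48 genes that passed at week 1 became 3 with only the 12 arrays of week 1, 25 with the authors' values (17 higher, 8 lower), 25 with stock neqc (13 higher, 12 lower), 27 without background correction, 5 with median scaling (0 higher, 5 lower) and 77 with array weights. Leaving out 1 rat gave 21 to 111 genes: 21 without air rat 1, 111 without air rat 2, 87 without air rat 3, 73 without silica rat 2 and 29 without silica rat 6. Requiring detection on at least 6 of 12 arrays gave 40 (30 higher, 10 lower) and, with air rat 1 also left out, an alternative added after seeing the data, 19. No filter gave 40 (19 higher, 21 lower). With only the 12 arrays, where 3 passed, and the replicate number as a block in addition, 0 genes passed (674 at an unadjusted p under 0.05), and the check of the numbers gave no ground for that block. The first 4 runs alone gave 0. A block for the run gave 38 at week 1, and moved the week 2 interaction from 4 to 37 and that of week 16 from 0 to 32. The cause was not tested.

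The week 2 interaction had 0 genes with median scaling, 2 with array weights and 2 to 17 when 1 rat was left out (2 without air rat 1, air rat 4 or silica rat 2, and 17 without air rat 2). That of week 16 had 2 with the authors' values and 0 to 2 when 1 rat was left out, the 2 without air rat 3. That of week 0 stayed at 0 in every alternative run. The difference in detected rows was 439.0 and ran from 99.5 to 577.2 when 1 rat was left out, never passing. No gene that passed changed sign in any alternative run, but the size of many changes did depend on the processing. Over all fits Il1r2 ran from 0.58 to 0.79 and Stfa2 from 0.71 to 1.00. Dimmer genes varied more: Ldhc ran from 0.12 to 0.66, Hk3 from 0.11 to 0.82 and Scaf1 from -0.75 to -0.09. The median of the S100 and stefin A list was 0.25 in the main fit and 0.08 with stock neqc. Single genes that passed kept their call in 741 of the results under an alternative and lost it in 487.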

Other observations

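Genes outside the lists came just short of the threshold at week 1. Clec4b2, a C-type lectin receptor gene of myeloid cells, was at 0.73 ± 0.19 (limma adjusted p = 0.0513), with every silica rat above every air rat. Map3k8, a kinase that carries inflammatory signals, was at 0.49 ± 0.13 (adjusted p = 0.0612), also without overlap. Scgb3a1, a secretoglobin best known from the airway, was at 0.56 ± 0.15 (adjusted p = 0.0521), and it was detected in 4 of 4 air and 8 of 8 silica rats. Htr2a, a serotonin receptor gene, was at -0.54 ± 0.14 (adjusted p = 0.0612). They were chosen after their values were seen, from the 20 genes of lowest p that did not pass.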
